A study of Mus musculus with 2 samples.

Results

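The genes described here are 45 mouse genes of the unfolded protein response and of the response to amino acid shortage, taken as a list of symbols. The rule uses no measured value, but the list was drawn up with earlier results of these data known. They comprise 17 chaperones and folding enzymes of the endoplasmic reticulum (ER), 7 genes of ER-associated degradation, 5 stress sensors and transcription factors, and 16 targets of Atf4, of which 8 act in stress regulation and 8 in amino acid supply. Of the 45 genes, 43 had at least 1 tag of their own in either library, out of 14450 such genes in all. The libraries came from GC-1spg, a line made from type B spermatogonia of a 10 day old mouse by transformation with pSV3-neo, and GC-2spd (ts), a spermatocyte line from a 6 week old mouse transformed with the SV40 large T antigen. Both lines were grown in DMEM with 10% FBS, and no stressor was named, so the values are levels under ordinary culture. Each line is 1 immortalized line represented by 1 library of digital gene expression (DGE) tags, 21-base tags that start at a CATG site, so every test below compares 2 libraries and not 2 lines or stages.

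The ER folds secreted and membrane proteins, and sensors in its membrane respond when unfolded proteins accumulate. The kinase and nuclease Ern1 (Ire1) splices the mRNA of the factor Xbp1, the factor Atf6 is cut free in the Golgi, and the kinase Eif2ak3 (Perk) phosphorylates the initiation factor eIF2, which slows general translation and favours translation of Atf4. Atf4 is also induced through other eIF2 kinases when amino acids run short, and its targets take up and make amino acids as well as regulate the stress response. Tags report mRNA abundance, so neither the splicing of Xbp1, the cleavage of Atf6 nor the translation of Atf4 was measured.

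The libraries held 5072149 clean tags for GC-1spg and 4726808 for GC-2spd (ts), and 1 copy was worth 0.197 and 0.212 TPM (tags scaled to 1000000 clean tags of the library). Wherever a pair of counts or levels follows, the GC-1spg value stands first. Of 20 germ cell markers, 18 had no tag of their own in either library, and *Ddx4*, *Dazl* and *Sycp3* were among them, so the germ cell label of the lines is not borne out by these markers. Of 12 fibroblast markers, 10 and 11 were listed, at summed levels of 4086 and 3280 TPM. The largest part was *Col1a1* (10465 and 2425 tags), and *Fn1* (2351 and 1211) and *Col6a1* (965 and 345) also stood lower in GC-2spd (ts). *S100a4* (3873 and 4784), *Vim* (984 and 2897), *Lox* (1122 and 2324) and *Col1a2* (605 and 907) stood higher there, so the sum hid differences in both directions. Markers of peritubular myoid cells summed to 66 and 579 tags in the GC-1spg and GC-2spd (ts) libraries, of which *Acta2* had 50 and 555, while *Des* had 11 and 4. Those of Sertoli cells summed to 1613 and 460, carried by *Clu* (902 and 262) and *Wt1* (620 and 0), while *Gata4* (29 and 138), *Sox9* (29 and 46) and *Inha* (4 and 14) stood higher in GC-2spd (ts), and those of Leydig cells summed to 4 and 5. The part of these differences in the values below was not tested. The libraries are of bulk RNA, in which more cells with a transcript and more of it per cell cannot be told apart.

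Most of the stress genes, 35 of 43, were not called different between the libraries, and the 8 that were went in both directions. A gene was called where the Audic-Claverie test on its tags gave an FDR (the Benjamini-Hochberg adjusted p) of 0.001 or less and the log2 ratio of TPM, GC-2spd (ts) over GC-1spg, was at least 1 in size. Of the 43 listed genes, 5 were called higher in GC-2spd (ts), where 11.7% of all genes tested were, and 3 were called lower, where 7.84% of all genes were. The share called in either direction was 18.6%, against 19.5% of all genes, which is near the background. Among the 36 with at least 100 tags over both libraries, 5 were called higher and 1 lower, against 16.5% and 8.77% of all genes of that depth. The median log2 ratio, with 0.5 tags added to both counts, was 0.040, against 0.13 over all genes tested, with 22 of the genes above 0 and 21 below. TMM scaling, which moved all ratios down by 0.17, made the median -0.13 and left 3 genes higher and 3 lower, and over all genes it gave 1292 higher and 1443 lower in place of 1684 and 1133. The summed level of the 43, from tags of their own, was 6144 and 6976 TPM.

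The genes called higher were *Calr*, *Pdia5*, *Atf6*, *Aldh18a1* and *Slc7a5*, and those called lower were *Derl2*, *Xbp1* and *Chac1*. Their most abundant tags are shown because each carries from 49.4% to 98.1% of its gene's copies, and so most of the difference. The CATG cut site is in capitals.
Calr: CATGtcatctttaactacaag
Pdia5: CATGtatggccttttgtacaa
Atf6: CATGtgtggaagaaatgcagg
Aldh18a1: CATGcttgacctttttataca
Slc7a5: CATGtcactgccctgaaagac
Derl2: CATGggtacttgagctcagtg
Xbp1: CATGaatggcccttagcattt
Chac1: CATGttccgggccttctggat
In the mouse genome GRCm38 they lie at chr8:84844910-84844930 (minus strand, coding sequence of *Calr*), chr16:35397337-35397357 (minus strand, *Pdia5*), chr1:170704818-170704838 (minus strand, *Atf6*), chr19:40550369-40550389 (minus strand, *Aldh18a1*), chr8:121881376-121881396 (minus strand, *Slc7a5*), chr11:71010030-71010050 (minus strand, *Derl2*), chr11:5525663-5525683 (plus strand, *Xbp1*) and chr2:119354012-119354032 (plus strand, *Chac1*). All but the *Calr* tag lie in the 3′ UTR, and all 8 are at the last CATG site of their transcript. Over the 43 listed genes the top tag matched its transcript without a mismatch in every case and lay wholly in the 3′ UTR in 36.

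**Figure D1:**
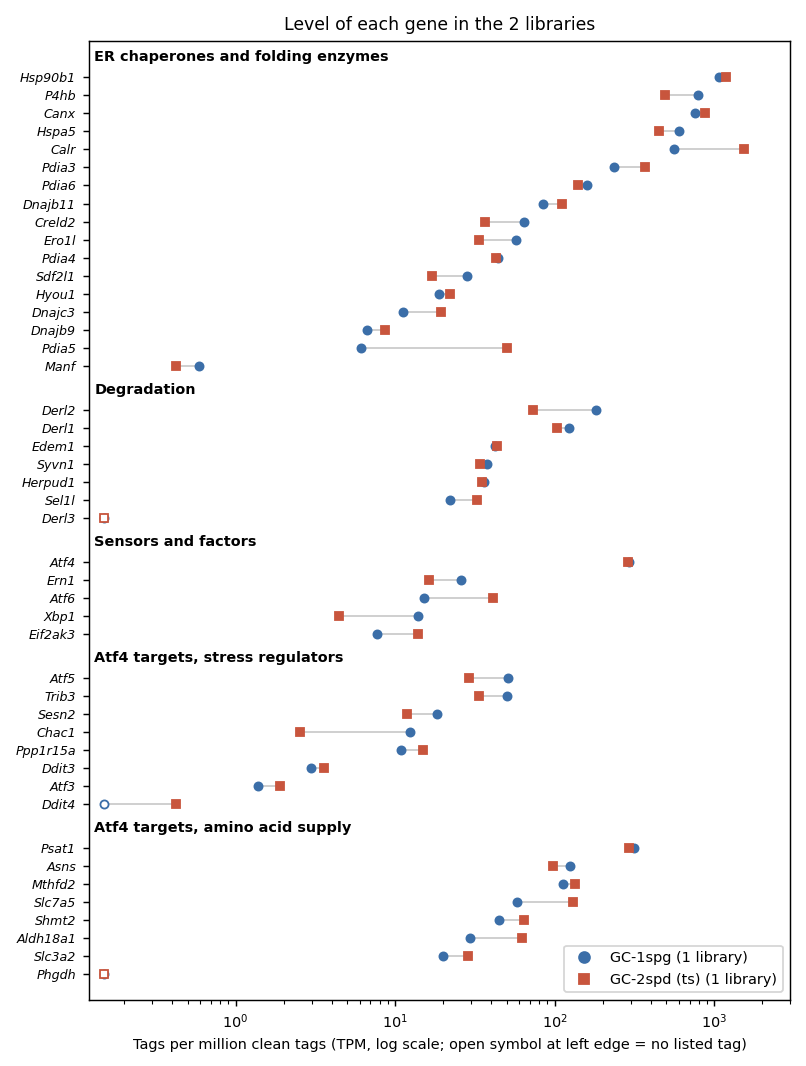
Level of each of the 45 genes in the GC-1spg library (circles) and the GC-2spd (ts) library (squares), in TPM on a log axis, by group, with open symbols at the left edge for genes with no listed tag. Most pairs of symbols lie close together, and the widest gaps among genes with tags in both libraries belong to *Pdia5* (6.11 and 50.1 TPM), *Chac1* (12.4 and 2.54 TPM) and *Xbp1* (71 and 21 tags).

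The ER chaperones and folding enzymes held most of the tags of the list, 22818 of 31161 and 25453 of 32974. Of the 17, *Calr* and *Pdia5* (11.8%) were called higher and none lower, against 11.7% and 7.84% of all genes. The share called higher is thus near the background. The median log2 ratio of the 17, 0.13, equalled that of all genes. *Calr* encodes calreticulin, the soluble lectin chaperone that holds calcium in the ER. It had 2845 and 7244 tags, or 561 and 1533 TPM, a log2 ratio of 1.45 with an exact 95% interval from 1.39 to 1.51. Calreticulin tags made up 12.5% and 28.5% of the chaperone tags. Without *Calr*, the summed level of the other 16 was 3938 and 3852 TPM, a log2 ratio of -0.032 (interval -0.061 to -0.0026). The log2 ratio of the whole chaperone sum, 0.26, thus lay in 1 gene.

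*Pdia5*, a less abundant member of the protein disulfide isomerase family, had the widest difference of the whole list. It had 31 and 237 tags (6.11 and 50.1 TPM), a log2 ratio of 3.04 (interval 2.49 to 3.63). The other disulfide isomerases were not called. *Pdia3*, the partner of calreticulin and calnexin, had 1197 and 1737 tags (log2 ratio 0.64, interval 0.53 to 0.75). *P4hb*, the most abundant isomerase here, had 4022 and 2322 tags (log2 ratio -0.69, interval -0.77 to -0.62). *Pdia6* had 813 and 663 tags (log2 ratio -0.19), and *Pdia4* had 223 and 202 tags (log2 ratio -0.041, interval -0.32 to 0.24). These 4 spread to both sides of 0. *Ero1l*, the oxidase that passes disulfides to these enzymes, had 288 and 159 tags and was not called (log2 ratio -0.76, interval -1.04 to -0.47).

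The general chaperones were not called either. *Hspa5* (BiP), the Hsp70 of the ER and the classic marker of the unfolded protein response, had 3029 and 2124 tags (597 and 449 TPM), a log2 ratio of -0.41 (interval -0.49 to -0.33). *Hsp90b1* (Grp94), the Hsp90 of the ER, had 5462 and 5588 tags (1077 and 1182 TPM), a log2 ratio of 0.13 that became -0.039 under TMM scaling. *Canx*, the membrane-bound partner of calreticulin, had 3819 and 4157 tags (log2 ratio 0.22, interval 0.16 to 0.29). The interval of calnexin thus did not overlap that of calreticulin. In GC-1spg *Hsp90b1* stood highest, *P4hb* and *Canx* followed with overlapping 95% Poisson intervals (769 to 818 and 729 to 777 TPM), and *Hspa5* and *Calr* came next, also overlapping. In GC-2spd (ts) the order was *Calr*, *Hsp90b1*, *Canx*, *P4hb* and *Hspa5*, with no overlap between neighbours. These 5 genes held 84.0% and 84.2% of chaperone tags.

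The smaller cochaperones and stress-induced luminal proteins went both ways and none was called. Among the J-domain cochaperones that stimulate BiP, *Dnajb11* had 429 and 525 tags (log2 ratio 0.39) and *Dnajc3* had 57 and 92 (log2 ratio 0.79, interval 0.30 to 1.30). *Hyou1*, an Hsp70-like nucleotide exchange factor of BiP, had 95 and 105 tags. The luminal proteins *Creld2* and *Sdf2l1*, both induced by ER stress, had 327 and 174 tags (log2 ratio -0.81) and 144 and 81 tags (log2 ratio -0.73). *Dnajb9* had fewer than 100 tags over both libraries, 34 and 41. *Manf* had only 3 and 2 tags (log2 ratio -0.48, interval -4.06 to 2.64), too few to show a difference. They came from 1 CATG site in the 5′ UTR, the last of its transcript although 907 bases from the transcript end. The level of *Manf* mRNA therefore cannot be read from this count.

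ER-associated degradation retrieves misfolded proteins to the cytosol for the proteasome. Of its 6 listed genes, all with at least 100 tags, 1 was called lower and none higher. Of all genes of that depth, 8.77% were called lower and 16.5% higher. A count of 1 in 6 is too small to read against those shares. *Derl2*, a derlin of the dislocation channel, had 920 and 344 tags, a 2.49-fold lower level (log2 ratio -1.32, interval -1.50 to -1.14). Its tags at a pair of separate 3′ UTR positions gave nearly the same ratio, with 692 and 265 copies at the first (-1.28) and 180 and 71 at the second (-1.24). The related *Derl1* had 624 and 489 tags (log2 ratio -0.25, interval -0.42 to -0.077), and *Derl3* had no tag in either library. The ubiquitin ligase *Syvn1* (Hrd1) had 190 and 160 tags (log2 ratio -0.15), and its adaptor *Sel1l* had 112 and 155 (0.57). *Herpud1*, a stress-induced scaffold of the same complex, had 183 and 165 tags (-0.048). The lectin *Edem1*, which sorts glycoproteins for degradation, had 214 and 205 tags, a log2 ratio of 0.040 that became -0.13 under TMM scaling. The summed level of the group was 442 and 321 TPM.

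**Figure D2:**
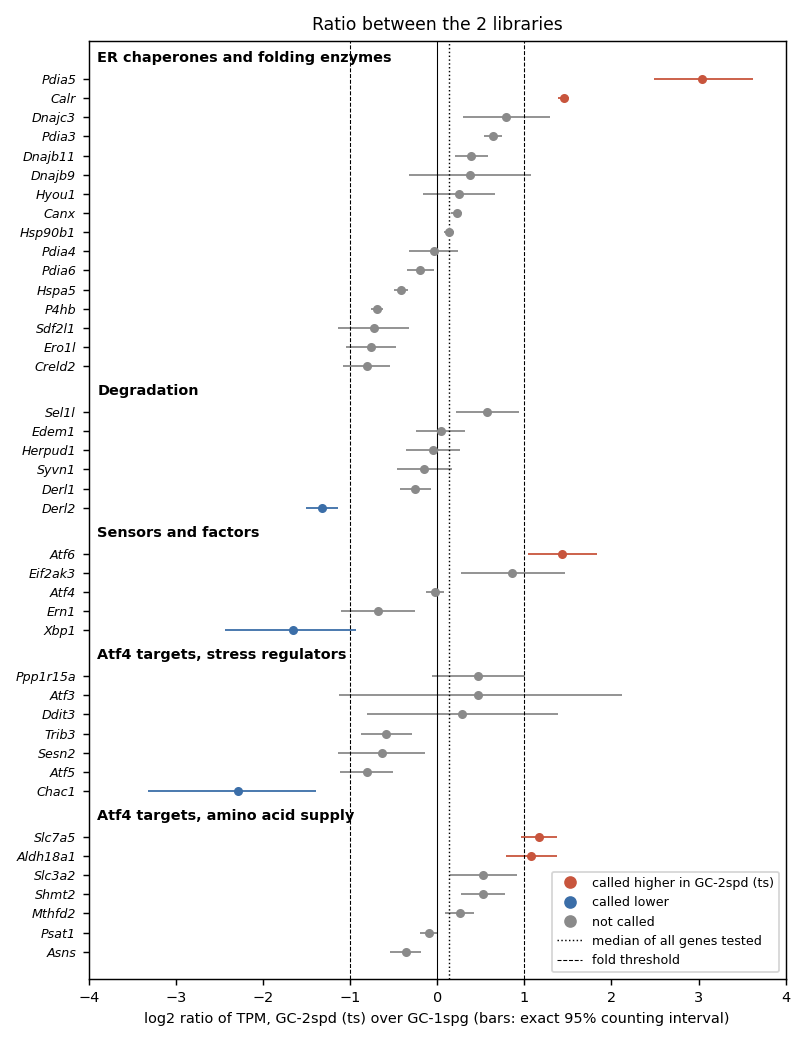
Log2 ratio of TPM, GC-2spd (ts) over GC-1spg, for the 41 genes with tags in both libraries and at least 10 over both, by group, with exact 95% counting intervals. The 5 genes called higher and 3 called lower lie outside the dashed lines at the fold threshold, and the dotted line marks the median of all genes at 0.13.

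The stress sensors and their factors differed from each other in direction. *Atf6* had 77 and 194 tags, a 2.70-fold higher level (log2 ratio 1.43, interval 1.05 to 1.84). *Eif2ak3* had 39 and 66 tags (log2 ratio 0.86, interval 0.27 to 1.47) and was not called. *Xbp1* had 71 and 21 tags, a 3.15-fold lower level (log2 ratio -1.66, interval -2.43 to -0.94). *Ern1*, which splices Xbp1 mRNA, had 132 and 77 tags (log2 ratio -0.68, interval -1.10 to -0.26) and was not called. In both genes of the Ern1 branch the GC-2spd (ts) library was thus the lower one, and in *Atf6* and *Eif2ak3* it was the higher one. *Atf4* mRNA was abundant and even, with 1477 and 1352 tags (291 and 286 TPM), a log2 ratio of -0.026 (interval -0.13 to 0.082).

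Of the 8 Atf4 targets in stress regulation, *Chac1* was called lower and none was called higher, where 7.84% and 11.7% of all genes were. A count of 1 in 8 is too small to read against that share. *Chac1*, an enzyme that degrades glutathione, had 63 and 12 tags, a 4.89-fold lower level (log2 ratio -2.29, interval -3.32 to -1.39). *Atf5*, a transcription factor regulated much like Atf4, had 258 and 137 tags (log2 ratio -0.81, interval -1.12 to -0.51). The pseudokinase *Trib3* had 256 and 159 tags (log2 ratio -0.59, interval -0.88 to -0.29). *Sesn2*, a sensor of leucine upstream of mTORC1, had 93 and 56 tags (log2 ratio -0.63, interval -1.14 to -0.14). Of these 3, *Atf5* and *Trib3* passed the FDR but not the fold threshold, and *Sesn2* passed neither. *Ppp1r15a* (Gadd34), the phosphatase subunit that reverses eIF2 phosphorylation, had 55 and 71 tags (log2 ratio 0.47, interval -0.058 to 1.01). *Atf3* had 7 and 9 tags. The summed level of the 8 genes from tags of their own was 147 and 98.0 TPM (log2 ratio -0.59, interval -0.76 to -0.42), a sum that lacks the main tags of *Ddit3* and *Ddit4*, described below. With those tags it was 305 and 244 TPM (log2 ratio -0.32, interval -0.43 to -0.21), a calculation added after the values were seen.

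Of the Atf4 targets in amino acid supply, 2 of 7 listed genes were called higher and none lower, all 7 with at least 100 tags, where 16.5% and 8.77% of all genes were called. A count of 2 in 7 is too small to read against that share. *Slc7a5*, the large neutral amino acid transporter, had 295 and 618 tags (log2 ratio 1.17, interval 0.97 to 1.37), and its heavy chain *Slc3a2* had 101 and 136 (log2 ratio 0.53, interval 0.15 to 0.92). *Aldh18a1*, the first enzyme of proline synthesis from glutamate, had 150 and 295 tags (log2 ratio 1.08, interval 0.79 to 1.37). Both calls lay close to the fold threshold and were lost under TMM scaling, where the ratios were 0.99 and 0.90. *Asns*, asparagine synthetase and the best known Atf4 target, had 632 and 458 tags (log2 ratio -0.36, interval -0.54 to -0.19). In serine and one-carbon metabolism, *Psat1* had 1583 and 1384 tags (log2 ratio -0.092), *Shmt2* had 228 and 305 (0.52) and *Mthfd2* had 568 and 634 (0.26). The median log2 ratio of the 7 genes was 0.52. For the 8 stress regulators it was -0.15 from tags of their own, with *Ddit4* at 0 and 2 tags among them, -0.38 with the main tags of *Ddit3* and *Ddit4* counted, and -0.60 over the 4 with at least 100 tags of their own. The difference between the groups was not tested.

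By the FDR alone, with no fold threshold, 10 of the 43 were higher (19.9% of all genes were) and 11 lower (12.8% of all genes were). Among those with at least 100 tags these counts were 10 and 9 of 36, against 33.3% and 18.8% of all genes of that depth. The 11 lower genes were *Hspa5*, *P4hb*, *Sdf2l1*, *Creld2*, *Ero1l*, *Derl2*, *Xbp1*, *Atf5*, *Trib3*, *Chac1* and *Asns*. The 10 higher genes were *Hsp90b1*, *Calr*, *Canx*, *Pdia3*, *Pdia5*, *Dnajb11*, *Atf6*, *Shmt2*, *Aldh18a1* and *Slc7a5*. Chaperones, factors and Atf4 targets stood in both lists.

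An ER stress promoter element was found in some of the chaperones, 7 of the 14 with a promoter sequence. Promoters of 39 of the 45 genes, from 250 bases before to 50 bases after the start site, were read from RefSeq (GRCm38.p6) and searched on both strands for the ER stress response element ERSE (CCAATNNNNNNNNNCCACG), bound by Atf6 with NF-Y. The element was found in 9 of them (23.1%), against 37 of 27025 promoters in all (0.137%), and 7 of the 9 were among the 14 chaperone promoters. The genes were listed for their part in the response that this element serves, so the contrast describes the list and is no test. The matches in 7 chaperones and *Syvn1* are shown because these genes hold the same element and yet range in log2 ratio from -0.81 to 1.45. The fixed bases are in capitals, and the strand of the element is given relative to the gene.
Hspa5: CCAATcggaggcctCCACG
Hsp90b1 (nearer): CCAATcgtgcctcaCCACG
Hsp90b1 (farther): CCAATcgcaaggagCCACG
Calr: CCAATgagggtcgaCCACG
Canx: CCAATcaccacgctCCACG
Pdia6: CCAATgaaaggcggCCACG
Creld2: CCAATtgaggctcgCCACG
Dnajc3: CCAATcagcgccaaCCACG
Syvn1: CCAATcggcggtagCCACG
They lie at chr2:34772025-34772043 (*Hspa5*, same strand), chr10:86705533-86705551 and chr10:86705638-86705656 (*Hsp90b1*, opposite and same strand), chr8:84847075-84847093 (*Calr*, opposite), chr11:50325800-50325818 (*Canx*, same), chr12:17266491-17266509 (*Pdia6*, same), chr15:88819520-88819538 (*Creld2*, opposite), chr14:118937827-118937845 (*Dnajc3*, same) and chr19:6046532-6046550 (*Syvn1*, same). The other match was in *Derl3*, which had no tag. All matches began between 44 and 212 bases before the start site.

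The 8 listed genes with an ERSE match ranged in log2 ratio from -0.81 (*Creld2*) to 1.45 (*Calr*), with 4 above 0 and 4 below. Not every sign is a clear direction, as the interval of *Syvn1* (-0.46 to 0.16) held 0 and *Hsp90b1* changed sign under TMM scaling. *Calr* alone was called, and 1 in 8 is too small to read against the 19.5% of all genes called. Of the other chaperones with a promoter sequence, 7 had no match, and *Pdia5* was one of them. The related ERSE-II (ATTGGNCCACG) was found in *Dnajb11* and *Herpud1*, 5.13% of the promoters against 0.0444% of all. A C/EBP-ATF element (TGATGNAA), the kind of site Atf4 binds, was found in *Herpud1*, *Atf3*, *Trib3*, *Chac1* and *Asns*, 12.8% against 4.51% of all. Of these 5, *Chac1* alone was called, again too small a count to read against the 19.5% of all genes. The letters TGACGTGG, an Xbp1 element, were in none of the 39 and in 0.714% of all promoters. No match overlapped one to another element. A match describes letters in this window and not a bound site. Sequences of *Hyou1*, *Manf*, *Ero1l*, *Derl1*, *Atf6* and *Slc7a5* were not used here.

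For some genes, tags at different positions of one transcript gave different ratios. Of 18 genes with at least 2 tags of 50 or more copies, 8 had all such tags in the direction of the gene. A tag at 0 in 1 library, as in *Shmt2* and *Pdia3*, was not counted as in that direction, whichever library it was in. Some of the other odd tags lay within counting error, such as a *Hspa5* tag with 32 and 34 copies (log2 ratio 0.19, interval -0.55 to 0.93). The remaining 10 genes are therefore not all genes with tags that disagree. The tag of *Dnajb11* nearest the 3′ end had 177 and 308 copies (log2 ratio 0.90), while its coding-sequence tag had 215 and 187 (-0.10). The abundant *Atf4* tag had 1338 and 1301 copies (0.061), while the next CATG site upstream had 102 and 33 (-1.53). For *Atf6* the tag nearest the 3′ end had 28 and 106 copies (2.02), while a tag 4188 bases from the transcript end had 29 and 33 (0.29, interval -0.48 to 1.06). *Psat1* had 1386 and 1292 copies at its last site (0.00041) and 139 and 70 at a site further upstream (-0.89). The ratio of *Shmt2* rested in part on a coding-sequence tag with 0 and 59 copies, as its main tag had 202 and 227 (0.27).

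**Figure D3:**
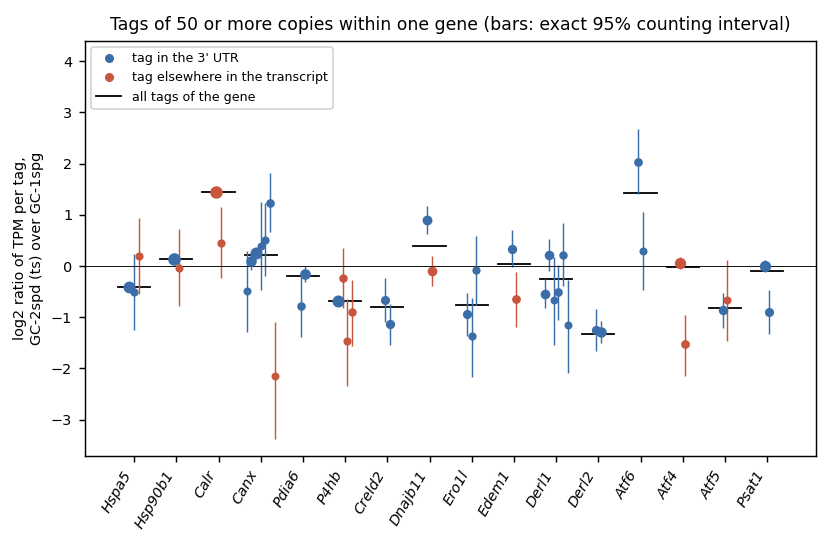
Log2 ratio of TPM, GC-2spd (ts) over GC-1spg, for each tag of 50 or more copies in the 16 genes with at least 2 such tags present in both libraries, with exact 95% counting intervals, larger points for more copies and a black bar for the ratio of the whole gene. The 2 *Derl2* tags coincide (-1.28 and -1.24), whereas those of *Atf4* (0.061 and -1.53) and *Atf6* (2.02 and 0.29) lie apart.

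In *Pdia3* the tags of 1 CATG site in exon 1 differed in sequence between the libraries. The pair is shown because each form was listed in 1 library only, and the differing base is in capitals.
Pdia3, reference form: catgctAgtcgagttcttcgc
Pdia3, other form: catgctGgtcgagttcttcgc
The site is chr2:121414179-121414199 on the plus strand, in the coding sequence. The reference form had 0 and 158 copies, and the other form (A7G, counted from 1 at the 5′ end of the tag, reference base first) had 259 and 0. Counted together they gave 259 and 158 copies. The main *Pdia3* tag, which spans the junction of exons 8 and 9, had 881 and 1503 copies (log2 ratio 0.87, interval 0.75 to 0.99), so the 2 sites differed in direction.

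For 3 genes most of the matching copies lay in a tag left out of the counts above. The tag also matched other genes (*Ddit3*, *Phgdh*) or ran past the transcript end (*Ddit4*). These tags are shown because the counts of the genes depend on whether they are included.
Ddit3: CATGtccagtaaagtgacttt
Phgdh: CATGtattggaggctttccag
Ddit4: CATGtttgttaaaacaaaaaa
*Ddit3* (Chop), the proapoptotic factor of the stress response, had 15 and 17 tags of its own. Its tag at chr10:127296259-127296279 (plus strand, 3′ UTR) had 306 and 287 copies and also matched the overlapping gene *Mars* on the opposite strand. With the sense match preferred, *Ddit3* had 323 and 304 tags, a log2 ratio of 0.014 (interval -0.22 to 0.24), so its level was even and about 64 TPM in both libraries. *Phgdh*, the first enzyme of serine synthesis, had no tag of its own, as its tag at chr3:98313315-98313335 (minus strand, coding sequence) with 358 and 809 copies was shared with 10 other genes. Counting all shared tags gave 404 and 876 (log2 ratio 1.22, interval 1.05 to 1.39), and whether these came from *Phgdh* cannot be told from the tag. With pseudogene transcripts left out of the reference it had 37 and 56 tags (log2 ratio 0.70, interval 0.075 to 1.34). *Ddit4*, an inhibitor of mTORC1, had 0 and 2 tags, but its last CATG site lies 16 bases from the transcript end (chr10:59949669-59949684, minus strand), so the tag runs into the poly(A) tail. With the tail added, *Ddit4* had 492 and 407 tags (log2 ratio -0.17, interval -0.36 to 0.021).

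**Figure D4:**
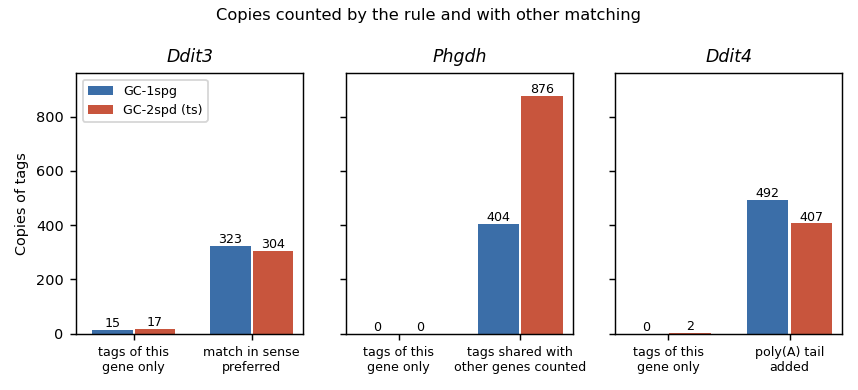
Copies of tags of *Ddit3*, *Phgdh* and *Ddit4* in the GC-1spg (blue) and GC-2spd (ts) (red) libraries, counted from tags of that gene only and with another matching rule for each gene. With the other rule *Ddit3* (323 and 304) and *Ddit4* (492 and 407) were near even, and *Phgdh* (404 and 876) was higher in GC-2spd (ts), in tags shared with other genes.

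A further 162 genes of the same pathways were counted for context, of which 156 were listed, 15 (9.62%) were called higher and 9 (5.77%) lower, no more than the 11.7% and 7.84% of all genes, with a median log2 ratio of 0.14 against 0.13. Among 50 other genes of ER folding, 4 were higher and 1 lower. They included *Ssr2*, a subunit next to the translocon, with 288 and 606 tags, *Fkbp14*, a prolyl isomerase, with 33 and 71, and *Mogs*, the first glucosidase of N-glycan trimming, with 96 and 192. Among 32 other degradation genes 3 were higher, *Dnajb14* (45 and 130 tags), *Sgta* (236 and 448) and *Ubl4a* (88 and 167), and *Edem2*, a relative of *Edem1*, was lower (187 and 75).

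Of 24 other sensors and factors, 2 (8.33%) were higher and 4 (16.7%) lower, against 11.7% and 7.84% of all genes. Such counts are too small to read against those shares. *Mbtps2*, the site-2 protease that cuts Atf6, had 48 and 185 tags (log2 ratio 2.05, interval 1.58 to 2.54), and *Atf6* was higher as well. The site-1 protease *Mbtps1* was not called (314 and 336 tags, log2 ratio 0.20, interval -0.027 to 0.43), nor was *Atf6b*, a relative of *Atf6* (336 and 377 tags, 0.27). *Creb3l1*, an ER-anchored factor cut in the same way as Atf6, had 19 and 160 tags (3.18, interval 2.49 to 3.95), whereas its relative *Creb3l2* had 276 and 114 (-1.17). *Cebpb*, a partner of Atf4 on its targets, had 637 and 165 tags (-1.85, interval -2.10 to -1.60), and *Gcn1l1*, which activates the amino acid sensing kinase Gcn2, had 209 and 92 (-1.08).

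Among 50 other Atf4 targets 6 (12%) were higher and 3 (6%) lower, near the 11.7% and 7.84% of all genes. *Got1*, the cytosolic aspartate aminotransferase, had 23 and 317 tags (log2 ratio 3.89, interval 3.28 to 4.57), and *Slc38a1*, a glutamine transporter, had 327 and 7 (-5.44, interval -6.77 to -4.38). *Ndrg1* had 438 and 67 tags (-2.61), *Klhl24* had 163 and 66 (-1.20), *Jdp2* had 77 and 163 (1.18) and the seryl-tRNA synthetase *Sars* had 256 and 541 (1.18). Of the 13 tRNA synthetases in that list 2 (15.4%) were higher and none lower, counts too small to read against the shares of all genes. As in the 45 genes, Atf4 targets were called in both directions. The share called was 18% of these 50 and 20% of the 15 listed targets among the 45, near the 19.5% of all genes.

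**Figure D5:**
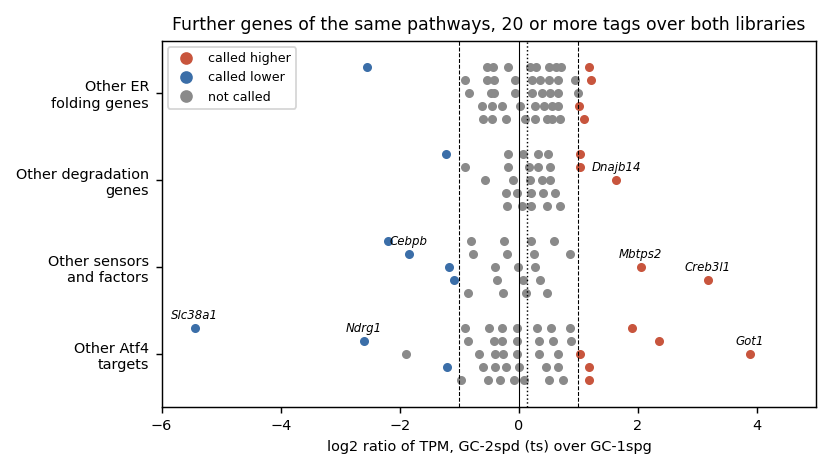
Log2 ratio of TPM, GC-2spd (ts) over GC-1spg, for the 142 further pathway genes with tags in both libraries and at least 20 over both, by list, with called genes coloured and the named genes beyond 1.5 in size labelled. Most genes lie between the dashed lines at the fold threshold, and *Got1* (3.89) and *Slc38a1* (-5.44) lie farthest out.

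The intervals cover counting error only. Assuming a biological coefficient of variation (BCV) of 0.2 in edgeR's exact test, *Pdia5* alone of the 8 called genes was still called, and with 0.4 none was.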

How the data were processed

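DGE libraries, 1 of GC-1spg and 1 of GC-2spd (ts), were sequenced by the authors, who removed adaptor, low quality and single-copy tags. The authors deposited each distinct clean tag with its raw count (copy number, smallest value 2) and its TPM, the copies scaled to 1000000 clean tags, not divided by transcript length. The deposited tags carry no genome position.

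CATG sites of all GENCODE M21 (GRCm38) transcripts were taken on both strands, and tags were matched with at most 1 mismatch, exact matches first. Sense tags of 1 gene only were summed per gene, and ratios were taken of TPM. Counts of all 14450 genes were compared by the Audic-Claverie test (two-sided) with Benjamini-Hochberg adjustment, with 0.01 TPM for a gene at 0. Intervals of ratios are exact at 95% (conditional binomial) and cover counting error only. The quasi-likelihood test of edgeR could not be fitted with 1 library per line. The unambiguous sense tags were 54.7% and 57.9% of clean tags. Alternatives changed the matching, the scaling (TMM of edgeR, size factors of DESeq2), the test, the filter and the thresholds. Python 3.11.15, numpy 2.4.6, scipy 1.17.1, matplotlib 3.10.9, R 4.3.3, edgeR 4.0.16 and DESeq2 1.42.0 were used.

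The genes, lists and tests were chosen with earlier results of these data known. Genes of the list with at least 100 tags or called were named with both counts, as were, of each further list and direction, up to 3 called genes with the largest ratio and at least 100 tags. Genes below that depth were named as well, to account for all 45. A planned description of protein ends was not run, since no protein sequences were used here.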

Additional observations from a re-analysis of the deposited data

How the results depend on the processing

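Ratios of the 43 listed genes were recomputed under 19 alternatives (18 planned, 1 with a poly(A) tail chosen after seeing the data). Of 813 such ratios, 756 kept their direction and call, 21 lost a call, 21 gained one and 15 changed sign. *Phgdh* and *Derl3*, with no tag of their own, had no first ratio and were not among them. The signs that changed were those of *Hsp90b1* under TMM (-0.039) and DESeq2 size factors (-0.029), *Edem1* under TMM (-0.13), DESeq2 (-0.12), scaling to unambiguous tags (-0.044) and with antisense tags (-0.025), *Canx* (-0.00025), *Pdia3* (-0.61), *Ero1l* (0.25) and *Atf4* (0.063) at the site nearest the 3′ end only, *Dnajb11* (-0.091) and *Ddit3* (-0.22) with the longest transcript only, *Ddit3* (-0.075) and *Ddit4* (-1.06) with antisense tags, and *Ddit4* (-0.17) with a poly(A) tail. Genes of the list called higher, 5 at first, numbered 3 under TMM, 1 at a BCV of 0.2 and 0 at 0.4. They numbered 7 at a log2 threshold of 0.5 and 10 with no fold threshold. Those called lower, 3 at first, numbered 0 at a BCV of 0.2 and 0.4, 9 at a log2 threshold of 0.5 and 11 with none. Of all genes, 1684 higher became 2542 with shared tags counted, and 511 and 108 at a BCV of 0.2 and 0.4. These 1684 became 2652 and 2877 at a threshold of 0.5 and with none. The 1133 lower became 489 and 136 at these BCVs, and 1677 and 1846 at a threshold of 0.5 and with none. *Aldh18a1* also lost its call under DESeq2 (0.91) and scaling to unambiguous tags (0.99), *Xbp1* at the site nearest the 3′ end (-1.32) and *Derl2* with shared tags (-0.73), while the longest *Derl2* transcript gave -3.48. Counting the main tags of *Ddit3* and *Ddit4*, also chosen after seeing the data, moved the log2 ratio of the summed stress regulators from -0.59 to -0.32. The cause of these changes was not tested beyond what each setting removes or adds. No paired analysis was possible because each line has 1 library, and no library could be left out.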

Other observations

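The single-base tag pair of *Pdia3* was one of 134 such pairs in 133 genes, counted with at least 10 copies per form, in which the reference tag was listed in GC-2spd (ts) only and the form with 1 changed base in GC-1spg only. The opposite arrangement was found 0 times. *Pdia3* was the only gene of the stress list among the 133. Below 10 copies, *Atf5* had a pair (C16T) with 2 copies of the reference form in GC-2spd (ts) and 5 of the other form in GC-1spg, and *Ddit3* had a pair (C17A) with 5 and 2 copies. The origin of these differences was not tested.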
